A study of Mus musculus with 4 samples.

Results

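The mitochondrial ribosomal protein genes are the nuclear genes whose symbols read Mrpl or Mrps followed by a number and at most 1 letter. They were taken from the table of 35798 named genes by that spelling, with at least 20 counts in sum over the 4 libraries, and 78 genes met the rule. The rule itself uses no difference between the genotypes. All 78 passed the filter on low counts that was set over all genes, which kept 13822. By their place in the ribosome, 51 belonged to the large subunit and 26 to the small subunit, with Mrps18a and Mrps30 counted in the large subunit, where their proteins lie. Mrps36 remained apart, because its product is now known as a subunit of the oxoglutarate dehydrogenase complex.

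The cells were Ly49H+ natural killer (NK) cells from mouse spleen, recovered at day 3.5 of infection with murine cytomegalovirus (MCMV), a virus that Ly49H recognises on infected cells. Wild-type NK cells carrying CD45.1 and TNFR2 KO NK cells carrying CD45.2 had been given together to NSG mice, which lack T, B and NK cells of their own but keep myeloid cells. Each genotype had 2 libraries, and same-numbered libraries of both genotypes came from 1 pool of 3 host spleens. Donor and host mice were between 6 and 12 weeks of age. The KO donors lacked TNFR2 in the whole body, not in NK cells alone, all hosts were infected, and the sort gate and CD45 allele differed along with genotype. The study describes 1 experiment in duplicate, so the spread between libraries may be technical.

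Mitochondria keep a small genome that encodes a few proteins of the respiratory chain, and these are made on a ribosome of their own. Its RNAs come from the mitochondrial genome, whereas its proteins are encoded in the nucleus, made in the cytosol and imported. Some of the proteins descend from those of bacterial ribosomes, and others exist only in mitochondria. Activated lymphocytes are known to build new mitochondria as they grow, and the question for these genes was whether their RNA differed between the genotypes during infection.

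Totals ran from 32713256 to 39543650 estimated counts per library. Expression is given as CPM, counts relative to the library size after TMM scaling, which sets the typical gene equal between libraries. A log2-fold change above 0 means more in TNFR2 KO than in wild-type. A gene counted as called where its p, adjusted by Benjamini-Hochberg over all genes tested, was under 0.05 in the quasi-likelihood test of edgeR. The duplicates were close, with a biological coefficient of variation of 3.33%, so small differences could pass the test. Tnfrsf1b, the targeted gene, was at 264.7 and 268.6 CPM in wild-type and 55.1 and 58.6 CPM in TNFR2 KO libraries. Markers of other blood cells differed between the groups. Of 28 macrophage markers 24 were called lower in TNFR2 KO and 4 higher (Itgax, Ctsd, Ly6c2 and Ccr2). The median log2-fold change over all 28 was -2.87. Their summed level, which includes the 4 higher ones, was 5590 to 5627 CPM in wild-type and 4235 to 4268 CPM in TNFR2 KO. All 15 neutrophil markers were called lower, from a sum of 1028 to 1046 CPM down to 103 to 107 CPM. Of 10 basophil and mast cell markers 9 were called lower and Cma1 higher, with sums of 1212 to 1215 CPM against 95.5 to 95.7 CPM. No marker of these 3 lists was at 0 in all libraries. Of 42 NK lineage genes, Ncr1 and Klra8 (the gene of Ly49H) among them, 40 were called higher, Cd226 was called lower and Tnfsf14 was not called, and their sum was 21007 to 21112 CPM in wild-type and 38781 to 39229 CPM in TNFR2 KO. The part of these differences in the values of the mitochondrial ribosomal genes was not tested. In bulk RNA, fewer cells of a type and less RNA per cell cannot be told apart.

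As a whole the 78 genes differed little between the genotypes under TMM scaling. They took 0.245% and 0.248% of the unscaled counts in wild-type replicates 1 and 2, and 0.239% and 0.237% in TNFR2 KO replicates 1 and 2. In these shares TNFR2 KO was slightly lower without overlap. After TMM scaling their summed expression was 2400 and 2427 CPM in wild-type and 2439 and 2419 CPM in TNFR2 KO. The groups overlapped in the sum, with TNFR2 KO replicate 2 below wild-type replicate 2. For such a sum, 2 against 2 libraries allow no two-sided p below 0.33 in an exact permutation test, so none is given.

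Of the 78 genes, 12 were called higher in TNFR2 KO, 13 were called lower and 53 were not called. The share called was 32.1%, against 50.4% of all genes tested. The higher calls made up 15.4% of the members and 24.2% of all genes, and the lower calls 16.7% and 26.2%. These directions are relative to the typical gene. With the libraries scaled on the NK lineage genes instead, the median over all genes moved from -0.003 to -0.84 on the log2 scale. That of the members moved from -0.02 to -0.86, and 0 members were called higher and 78 lower. Of all 13822 genes, 125 were called higher and 12164 lower with that scaling (88.9% called), so lower calls were general. The distance between both medians was -0.02 under either scaling. Where the test was limited to genes of at least 10 CPM on average, 39.7% of 73 members were called and 56.9% of all 8765 genes.

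Under TMM scaling the changes were small as well as few. The members' log2-fold changes had quartiles of -0.14 and 0.07 and ran from -0.62 for Mrpl23, which was not called, to 0.60 for Mrpl1, which was. In 60 of the 78 genes (76.9%) the change lay within 0.25 of no change, as it did in 54.3% of all genes. Only Mrpl1 was both called and changed by over 0.5 on the log2 scale, a size that 21.2% of all genes passed. No member was called with a change over 1, whereas 13.3% of all genes were. In edgeR 33 of the 78 members had an unadjusted p under 0.05, beside 7696 of the 13822 genes tested. In DESeq2 19 members did, and the number over all genes was not counted there. Both TNFR2 KO libraries were above both wild-type libraries in 21 members and below them in 26, and the groups overlapped in 31. Over all genes tested, TNFR2 KO was above in 36.4% and below in 37.7%, so that 74.0% did not overlap.

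**Figure D1:**
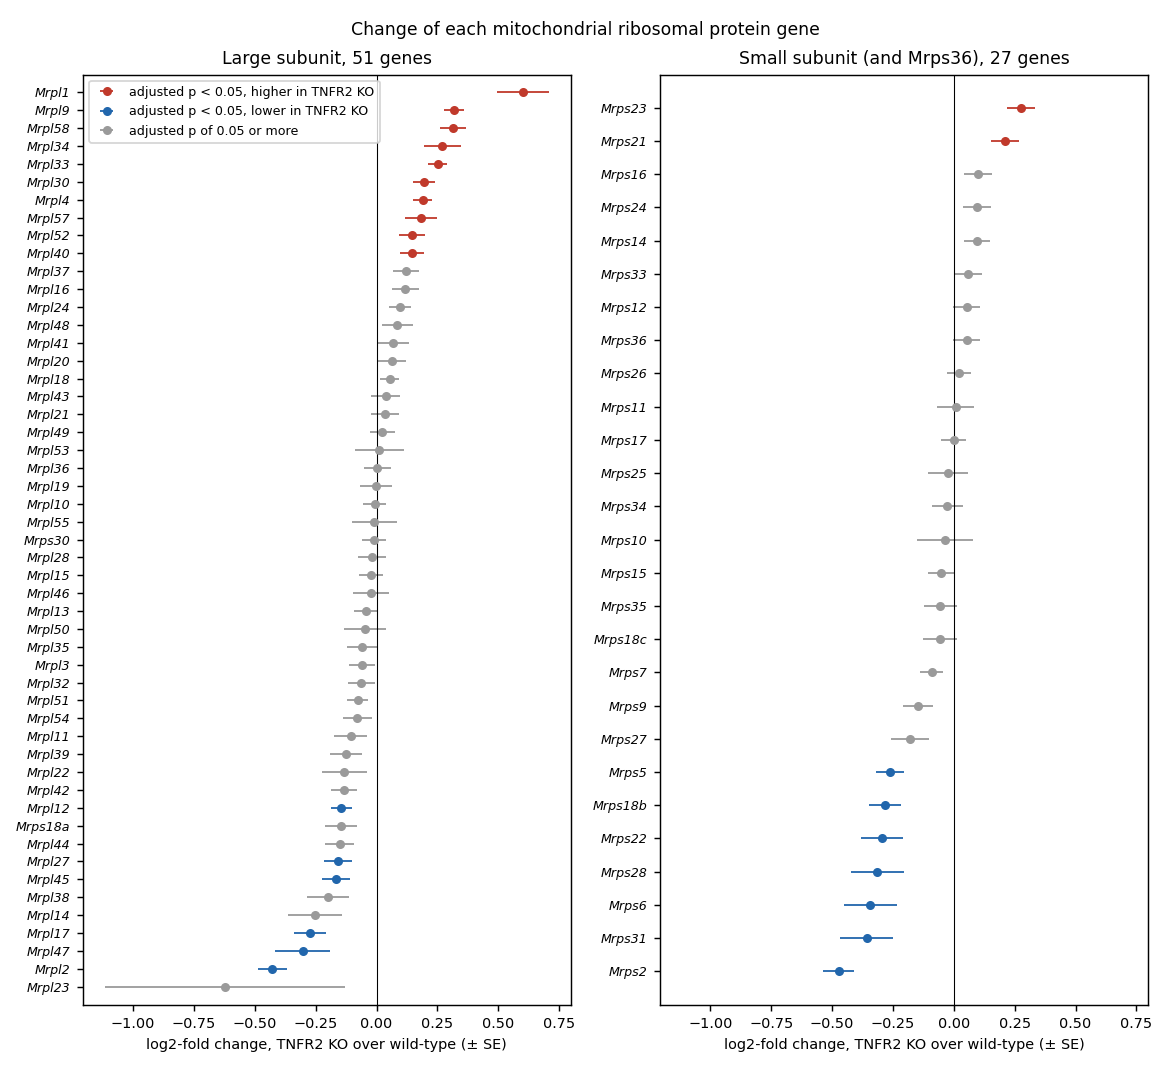
Log2-fold change between TNFR2 KO and wild-type (horizontal axis, TMM scaling) for each of the 78 genes, as a point with its standard error, by subunit and in order of change. Red and blue points are the 12 genes called higher and the 13 called lower, grey points the 53 not called, and Mrpl23 at the bottom left has by far the widest error of the genes shown. With NK lineage scaling all 78 values lie below 0, as does the median of all genes (-0.84).

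Mrpl1 had the largest called change. Its protein forms the mobile stalk, where the used tRNA leaves the ribosome. The gene lies on the plus strand of chromosome 5 (GRCm38, 96209493 to 96266727), and its level per transcript length was among the lowest of the group. It measured 7.62 and 8.22 CPM in wild-type and 11.9 and 12.2 CPM in TNFR2 KO. Both TNFR2 KO libraries stood above both wild-type libraries, a 1.52-fold difference (log2-fold change 0.60, standard error 0.105, adjusted p = 4.43e-04 in edgeR). Leaving out single libraries gave 0.56 to 0.67.

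Mrpl9, a large subunit protein with a bacterial counterpart, rose from 52.9 and 52.4 CPM in wild-type to 64.9 and 66.3 CPM in TNFR2 KO (log2-fold change 0.32, standard error 0.0414, adjusted p = 4.18e-05). Mrpl58, a peptidyl-tRNA hydrolase that became a fixed part of the mitochondrial large subunit, rose from 33.5 and 32.1 CPM to 39.7 and 42.0 CPM (log2-fold change 0.31, standard error 0.0536, adjusted p = 3.95e-04). In both genes the 2 TNFR2 KO libraries were the higher ones without overlap. Mrps23, a small subunit protein found only in mitochondria, measured 24.7 and 25.9 CPM in wild-type and 31.02 and 30.2 CPM in TNFR2 KO, differing by 0.28 on the log2 scale (adjusted p = 0.00158). Mrpl33, the bacterial-type protein with the most RNA per length in the group, rose from 63.0 and 61.1 CPM to 73.4 and 74.3 CPM, a change of 0.25 (adjusted p = 2.08e-04). Mrpl34, a short protein of bacterial type, was at 18.035 and 20.7 CPM in wild-type and 23.9 and 22.8 CPM in TNFR2 KO, a change of 0.27 (adjusted p = 0.0106). No library of one genotype reached into the range of the other in these genes, but Mrpl34 was no longer called without wild-type replicate 1 (0.18, adjusted p = 0.0865) or with DESeq2 (adjusted p = 0.0503). With NK lineage scaling all of these were lower in TNFR2 KO, from -0.24 for Mrpl1 to -0.59 for Mrpl33.

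Among the lower genes, Mrps2 and Mrpl2 stood apart from the rest in size. Mrps2 encodes a bacterial-type protein of the small subunit and lies on the plus strand of chromosome 2 (GRCm38, 28468066 to 28471178). It measured 27.5 and 29.8 CPM in wild-type and 21.1 and 20.1 CPM in TNFR2 KO, which was 72.0% of wild-type (log2-fold change -0.47, standard error 0.0642, adjusted p = 5.90e-05 in edgeR). Mrpl2, on the plus strand of chromosome 17 (46646229 to 46650139), encodes one of the most conserved ribosomal proteins and lies next to the site of peptide bond formation. It measured 25.7 and 26.1 CPM in wild-type and 19.3 and 19.2 CPM in TNFR2 KO, or 74.3% of wild-type (log2-fold change -0.43, standard error 0.0606, adjusted p = 8.43e-05). In both genes the TNFR2 KO libraries were clearly the lower pair, and their calls held with each library left out and with DESeq2.

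The next 4 lower genes rested on fewer counts, and their calls were less sure. Mrps31, found only in mitochondria, measured 11.0 and 11.7 CPM in wild-type and 8.35 and 9.43 CPM in TNFR2 KO (log2-fold change -0.36, adjusted p = 0.0159 in edgeR). Mrps6, of bacterial type, measured 11.2 and 10.2 CPM against 8.76 and 8.12 CPM (-0.34, adjusted p = 0.0210). Mrps28, a small subunit protein, measured 12.3 and 12.5 CPM against 9.15 and 10.8 CPM (-0.31, adjusted p = 0.0294). Mrpl47 measured 10.6 and 11.7 CPM against 8.45 and 9.64 CPM (-0.30, adjusted p = 0.0411). The groups did not overlap in any of the 4, but none was called by DESeq2 (adjusted p from 0.0703 to 0.144), and each lost its call without some library. Without TNFR2 KO replicate 1, Mrps31, Mrps28 and Mrpl47 were at -0.26, -0.18 and -0.20, and without wild-type replicate 2 at -0.31, -0.30 and -0.22. Without wild-type replicate 1, Mrps6, Mrps28 and Mrpl47 were at -0.26, -0.32 and -0.37, and Mrps6 was at -0.29 without TNFR2 KO replicate 2. None of these values was called.

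**Figure D2:**
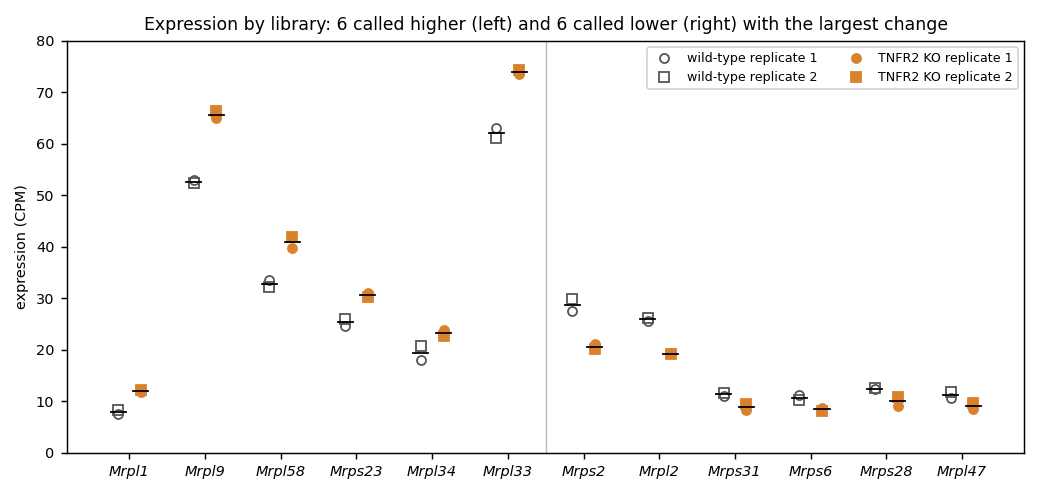
Expression in CPM (vertical axis, from 0) of the 6 genes called higher and the 6 called lower in TNFR2 KO with the largest changes, with 1 symbol per library and a bar at the mean of each genotype. The TNFR2 KO symbols lie above the wild-type symbols in all 6 genes on the left and below them in all 6 on the right under TMM scaling, while NK lineage scaling puts TNFR2 KO lower in all 12.

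The remaining 13 calls were changes of 0.30 or less in size. Higher in TNFR2 KO were Mrps21 (0.21), Mrpl30 (0.20), Mrpl4 (0.19), Mrpl57 (0.18), Mrpl52 (0.15) and Mrpl40 (0.15). Lower were Mrps22 (-0.29), Mrps18b (-0.28), Mrpl17 (-0.27), Mrps5 (-0.26), Mrpl45 (-0.17), Mrpl27 (-0.16) and Mrpl12 (-0.14). Mrpl30, Mrpl57 and Mrps22 were named only after their values had been seen. Over all 25 calls, 7 higher genes (Mrpl1, Mrpl4, Mrpl9, Mrpl30, Mrpl33, Mrpl58 and Mrps23) and 4 lower genes (Mrpl2, Mrps2, Mrps5 and Mrps18b) were called whichever library was left out. DESeq2 called 8 of the 12 higher and 5 of the 13 lower genes and no other member. The fit without wild-type replicate 1 called 9 members higher and 6 lower, of which 8 and 5 were among the 12 and 13. The fit without wild-type replicate 2 called 14 higher and 8 lower, 12 and 7 of them shared.

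By subunit, calls in the large subunit were 10 higher (19.6%) and 6 lower (11.8%) among 51 genes. In the small subunit 2 (7.69%) were higher and 7 (26.9%) lower among 26, beside 24.2% and 26.2% of all genes tested. The share of lower calls in the small subunit was thus near that of all genes. The median log2-fold changes of the large and the small subunit were -0.01 and -0.04, both close to the value for all genes. The difference between the subunits was not tested. The small subunit genes summed to 704.8 and 710.3 CPM in wild-type and 693.1 and 686.7 CPM in TNFR2 KO. The large subunit genes summed to 1669 and 1691 CPM in wild-type and 1719 and 1705 CPM in TNFR2 KO. The TNFR2 KO libraries were thus the lower pair for the small subunit and the higher pair for the large subunit under TMM, by a few percent at most, while with NK lineage scaling both were lower, with medians of -0.85 for the large and -0.89 for the small subunit. Proteins with a bacterial counterpart gave 7 higher and 9 lower genes of 46 (15.2% and 19.6%). Those classed as particular to mitochondria gave 5 and 4 of 31 (16.1% and 12.9%). Mrps18a and Mrps18b, the second of them among the 4 lower genes, were classed there although they descend from a bacterial protein.

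The roles within the ribosome were next examined one at a time, starting with the catalytic centre. Around the site of peptide bond formation and the first part of the exit tunnel lie Mrpl2, Mrpl3, Mrpl4, Mrpl16 and Mrpl27. Of these 5, Mrpl4 was called higher and Mrpl2 and Mrpl27 lower. Mrpl4, whose protein lines the tunnel, measured 68.5 and 70.0 CPM in wild-type and 77.2 and 80.9 CPM in TNFR2 KO (log2-fold change 0.19, adjusted p = 0.00193 in edgeR). Mrpl27, whose tail reaches the catalytic site, measured 30.7 and 31.3 CPM against 28.9 and 26.6 CPM (-0.16, adjusted p = 0.0422). Genes of proteins that touch each other thus went both ways under TMM, though all 5 were lower with NK lineage scaling. The call of Mrpl27 was made in only 1 of the 4 fits with a library left out, the one without TNFR2 KO replicate 1, and the values in the other 3 fits ran from -0.16 to -0.10.

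At the mouth of the exit tunnel, where new proteins pass into the inner membrane, 3 of 7 genes were called lower and none higher, with a median of -0.17. The share called, 42.9%, was below the 50.4% of all genes, and the share of lower calls was above their 26.2%, over few genes and with no test of the list. Mrpl17 measured 28.3 and 25.7 CPM in wild-type and 22.9 and 21.7 CPM in TNFR2 KO (log2-fold change -0.27, adjusted p = 0.00427 in edgeR). Mrpl45, which tethers the ribosome to the membrane, measured 28.9 and 28.0 CPM against 25.98 and 24.7 CPM (-0.17, adjusted p = 0.0306). Mrpl47 was the third. Both groups were apart in each of these, but only Mrpl17 was called by DESeq2 too, and it lost its call without wild-type replicate 1 (-0.20, adjusted p = 0.0536). Mrpl45 was called only without TNFR2 KO replicate 1, and lay between -0.18 and -0.13 in the other 3 such fits. Of the others at the exit, Mrpl22 (-0.13), Mrpl44 (-0.15), Mrpl23 (-0.62) and Mrpl24 (0.10) were not called.

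The central protuberance is the crown of the large subunit that faces the small one, and in mitochondria it holds a tRNA in place of a small ribosomal RNA of bacteria. Of its 10 genes, Mrpl40, Mrpl52 and Mrpl58 were called higher and Mrpl27 lower, with a median of 0.02. Mrpl40 measured 43.0 and 45.4 CPM in wild-type and 49.2 and 48.4 CPM in TNFR2 KO (log2-fold change 0.15, adjusted p = 0.0247 in edgeR). Mrpl52 measured 41.1 and 44.3 CPM against 48.8 and 45.6 CPM (0.15, adjusted p = 0.0421). Neither was called without wild-type replicate 1 (0.12 and 0.10) or without TNFR2 KO replicate 1 (0.14 and 0.11). Mrpl18, which had the highest CPM of the 78 before any correction for length (64.8 CPM per kilobase), sits here and was not called, at 76.2 and 78.9 CPM in wild-type and 79.8 and 81.2 CPM in TNFR2 KO (0.05, adjusted p = 0.276). Mrpl38, Mrpl46, Mrpl48, Mrpl55 and Mrps30 were at -0.20, -0.02, 0.09, -0.01 and -0.01 and were not called either, but Mrpl38 was called once the spleen pool was added to the fit as a block (-0.20, adjusted p = 0.0431).

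The stalk that brings elongation factors to the ribosome consists of copies of Mrpl12 held by Mrpl10, with Mrpl11 at its base. Mrpl12 measured 56.1 and 56.9 CPM in wild-type and 52.1 and 50.004 CPM in TNFR2 KO, without overlap (log2-fold change -0.14, adjusted p = 0.0168 in edgeR). That call was made in only 1 of the 4 fits with a library left out, the one without TNFR2 KO replicate 1, with values from -0.15 to -0.11 in the other 3, and DESeq2 gave an adjusted p of 0.0960. Mrpl10, the anchor, measured 56.8 and 60.8 CPM against 59.7 and 57.1 CPM and was not called (-0.01, adjusted p = 0.909). Mrpl11 measured 20.2 and 20.4 CPM against 18.8 and 19.0 CPM (-0.11, adjusted p = 0.212). The groups overlapped for Mrpl10 and not for Mrpl11.

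In the small subunit, 9 genes belong to the decoding centre and the path of the mRNA. Mrps21 was called higher (11.1%) and Mrps5 and Mrps18b lower (22.2%), beside 24.2% and 26.2% of all genes tested. The median was -0.06. Mrps5, at the entry of the mRNA channel, measured 32.4 and 32.2 CPM in wild-type and 25.98 and 27.9 CPM in TNFR2 KO (log2-fold change -0.26, adjusted p = 0.00221 in edgeR). Mrps21 measured 41.4 and 41.4 CPM against 50.4 and 45.3 CPM (0.21, adjusted p = 0.00786), and lost its call without TNFR2 KO replicate 1, its higher library (0.14, adjusted p = 0.0771). Mrps12, the protein that in bacteria carries resistance to streptomycin, measured 26.9 and 27.0 CPM against 27.9 and 28.1 CPM and was not called (0.05, adjusted p = 0.461). Mrps7, Mrps11, Mrps18c, Mrps24 and Mrps35 lay between -0.09 and 0.09 and were not called.

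Mrps18a, Mrps18b and Mrps18c are 3 relatives that descend from a single bacterial protein, and their products sit at different places in the ribosome. Mrps18b measured 22.4 and 23.4 CPM in wild-type and 18.9 and 18.7 CPM in TNFR2 KO, below it in both libraries (log2-fold change -0.28, adjusted p = 0.00308 in edgeR). Mrps18a measured 27.4 and 26.9 CPM against 25.98 and 23.0 CPM (-0.15, adjusted p = 0.0882). Mrps18c measured 31.8 and 30.8 CPM against 32.2 and 27.8 CPM, and its groups overlapped (-0.06, adjusted p = 0.534). Whether the 3 differed from each other was not tested. Of the 31-base stretches of Mrps18b, 31.6% also occur in another gene, mostly Gm16279, which overlaps it on the opposite strand. Of those of Mrps18c 34.5% do. Matches on either strand were counted. Reads from matches on the same strand could have been assigned to either gene, and those from opposite strands only if strand was ignored.

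Mrpl23 had the lowest level of the 78, per length too, with a mean of 1.65 CPM. It had 116 and 36.0 estimated counts in wild-type and 71.8 and 23.2 in TNFR2 KO. In both genotypes replicate 1 had the higher count, and the genotypes overlapped. The log2-fold change of -0.62 had a standard error of 0.493 (adjusted p = 0.323 in edgeR), and it was 0.43 without wild-type replicate 1. Without wild-type replicate 2 or TNFR2 KO replicate 1 it was called, at -1.21 and -1.48.

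The gene lies on the plus strand of chromosome 7 (GRCm38, 142532686 to 142540747) and has a pseudogene, Mrpl23-ps1, on the minus strand of chromosome 2 (74591330 to 74591909). Of the 539 stretches of 31 bases in Mrpl23-ps1, 510 (94.6%) also occur in Mrpl23. They make up 10.3% of the 4958 stretches pooled over all annotated transcripts of Mrpl23. Its coding transcripts have a median length of 692 bases, and the share within these alone was not counted. The pseudogene was listed at 16.4 and 18.1 CPM in wild-type and 14.0 and 15.8 CPM in TNFR2 KO, several times the level of Mrpl23 itself. Added together the pair measured 19.4 and 19.1 CPM in wild-type and 15.9 and 16.5 CPM in TNFR2 KO. In the sum the duplicates lay close and the genotypes did not overlap, at a log2 ratio of -0.25 with no test. Mrpl23 took 15.7% and 5.12% of this sum in wild-type replicates 1 and 2, and 11.7% and 4.39% in TNFR2 KO replicates 1 and 2. Its own value rests on few counts and is uncertain, and the part of the shared sequence in it was not tested. Mrpl23-ps1 was added after its values had been seen.

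**Figure D3:**
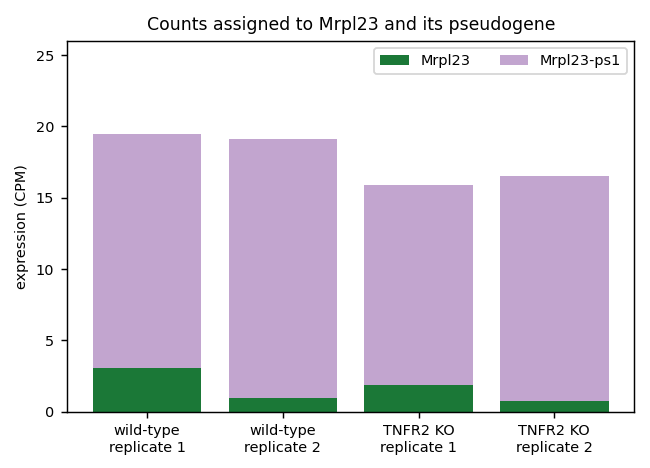
Expression in CPM (vertical axis, from 0) assigned to Mrpl23 (lower part of each bar) and to its pseudogene Mrpl23-ps1 (upper part) in each of the 4 libraries. The whole bars are 19.4 and 19.1 CPM in wild-type and 15.9 and 16.5 CPM in TNFR2 KO, while the part of Mrpl23 is larger in replicate 1 of both genotypes.

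Sequence shared with other genes was also counted for every member, as a share of the member's own stretches pooled over all its annotated transcripts. Matches on either strand counted, also those to genes that overlap a member on the opposite strand, such as Nr2c2 for Mrps25. In 13 of the 78 genes at least 20% of the 31-base stretches occurred in another gene, most of all in Mrpl53 (84.4%), Mrps34 (73.8%) and Mrps25 (68.9%), none of which was called. Mrpl27 (38.9%), Mrps18b (31.6%) and Mrpl47 (25.8%) were the called genes among them. The other 65 genes held 12 higher and 10 lower calls with a median of -0.02. At that limit the sharing covered 3 of the lower calls and none of the higher ones. With 14.2% of its pooled stretches Mrpl23 lay below the limit, although 94.6% of the stretches of Mrpl23-ps1 occur in it.

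Levels between genes can be compared only per length. In CPM per kilobase of transcript, averaged over the 4 libraries, the members ran from 2.39 for Mrpl23 to 142 for Mrpl33, with a median of 24.7. Mrps21 (110 CPM per kilobase) and Mrpl52 (108) followed Mrpl33, and Mrpl1 (2.91) and Mrps25 (3.00) stood next to the bottom. Genes of 1 complex thus differed widely in listed RNA, although transcript length here is that of the reference annotation and may not be the form these cells use.

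The direction of the change moved with the level of the gene. The 12 genes called higher had a median of 44.8 CPM and a median transcript length of 740.5 bases, and the 13 called lower 22.6 CPM and 1197 bases. Across the 78 genes Spearman's rho between mean CPM and log2-fold change was 0.49. It was 0.25 over all 13822 genes, 0.13 over those with at least 10 CPM, 0.33 over 94 cytosolic ribosomal protein genes and 0.09 over 80 nuclear genes of the respiratory chain. Genes of the same libraries are not independent replicates, and their values share depth and scaling, so these are descriptions. With transcript length rho was -0.11 in the members, and with GC content -0.06.

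**Figure D4:**
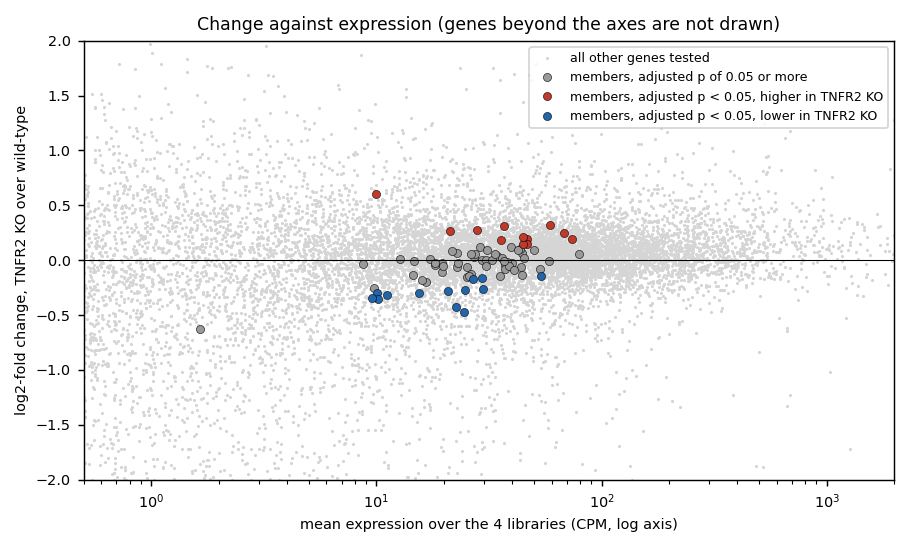
Log2-fold change (vertical axis, TMM scaling) against mean expression over the 4 libraries (horizontal axis, CPM on a log scale) for the 78 members (large points, red called higher, blue called lower, grey not called) and the other genes tested (small grey points). Most members lie between 8 and 80 CPM in a narrow band around 0, with the blue points at lower CPM than most red ones. With NK lineage scaling the whole band lies lower, with every member below 0.

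The control regions of these genes are known to carry sites for NRF1, for GABP (an ETS factor) and for YY1, which regulate many genes of mitochondrial biogenesis. RefSeq windows on GRCm38.p6, from 250 bases before to 50 bases after the transcript start, were found for 69 of the 78 genes. They were searched on both strands for CCGGAAG (ETS), AAGATGGCG (YY1) and the palindromic NRF1 motif, which is GCGCA followed by its reverse complement TGCGC. A match to ETS and one to YY1 can share the letters AAG. At least 1 of them was present for 35 of 69 members (50.7%), against 24.2% of the tested genes and 12.1% of all genes with a window. The ETS motif was in 37.7% of the members and 19.8% of the tested genes, YY1 in 11.6% and 3.53%, and NRF1 in 4.35% and 2.30%. A motif was found for 8 of 11 genes called higher, 4 of 12 called lower and 23 of 46 not called. A match is a description of the letters, not a site in use.

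The 150 bases before the start are shown for Mrpl9 and Mrpl58, both called higher in TNFR2 KO, and for Mrps22 and Mrps2, both called lower, to show windows with different motifs and 1 without any. They are read 5′ to 3′ along the gene's strand, with the motif in capitals. The positions are chr3:94443186-94443335 (plus strand), chr11:115403602-115403751 (plus), chr9:98601680-98601829 (minus) and chr2:28467916-28468065 (plus) of GRCm38.p6, in that order.
Mrpl9: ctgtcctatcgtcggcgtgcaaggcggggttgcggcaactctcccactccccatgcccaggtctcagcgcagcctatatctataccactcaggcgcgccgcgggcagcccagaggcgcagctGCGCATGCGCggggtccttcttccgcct
Mrpl58: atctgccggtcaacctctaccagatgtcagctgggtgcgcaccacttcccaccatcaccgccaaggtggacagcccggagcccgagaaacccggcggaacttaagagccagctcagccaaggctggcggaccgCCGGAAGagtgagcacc
Mrps22: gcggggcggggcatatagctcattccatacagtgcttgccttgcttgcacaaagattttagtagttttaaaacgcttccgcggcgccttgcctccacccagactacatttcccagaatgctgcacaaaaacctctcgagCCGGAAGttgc
Mrps2: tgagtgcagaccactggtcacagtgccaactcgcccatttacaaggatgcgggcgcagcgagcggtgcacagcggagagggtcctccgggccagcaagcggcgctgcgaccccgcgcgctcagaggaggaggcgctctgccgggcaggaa
The NRF1 motif of Mrpl9 begins 28 bases before the start, and the ETS motifs of Mrpl58 and Mrps22 begin 17 and 11 bases before it. None of the 3 motifs is in the window of Mrps2. Mrpl58 and Mrps22 both carry these 7 letters close to the start, and Mrps22 was not called by DESeq2 (adjusted p = 0.0653). Over the members with a window, the ETS motif was found for 7 of 11 called higher, 4 of 12 called lower and 15 of 46 not called. Whether a motif goes with the direction of the change was not tested.

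The factors that act on such sites were measured too. Nrf1 was at 63.6 and 67.4 CPM in wild-type and 68.9 and 71.8 CPM in TNFR2 KO (log2-fold change 0.10, adjusted p = 0.0688 in edgeR), and Gabpa at 93.9 and 92.7 against 91.2 and 91.6 CPM (-0.03, adjusted p = 0.508). Neither was called. Of 10 regulators of mitochondrial biogenesis in the list, Ppargc1a and Gabpb2 were called higher and Myc, Pprc1 and Ppargc1b lower. Myc, which drives growth genes including those of mitochondria, measured 40.6 and 45.8 CPM in wild-type and 31.9 and 28.9 CPM in TNFR2 KO (-0.50, adjusted p = 5.92e-05). Pprc1, a coactivator of NRF1, measured 48.7 and 47.9 CPM against 35.2 and 34.7 CPM (-0.46, adjusted p = 5.09e-06). Both stood clear of overlap. Ppargc1b measured 4.51 and 5.07 CPM against 2.61 and 3.09 CPM (-0.75), and Ppargc1a stayed under 1 CPM in all libraries.

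The donors differed at 2 known loci, the targeted gene and the CD45 gene. On chromosome 4, which holds Tnfrsf1b, lie Mrpl20, Mrps15, Mrpl37 and Mrpl50, the nearest of them 10.6 Mb from Tnfrsf1b, and none was called. On chromosome 1, which holds Ptprc, the gene of CD45, lie Mrps14, Mrpl44, Mrps9, Mrpl30 and Mrpl15. Only Mrpl30 of these was called, and it lies 100 Mb from Ptprc. Of the 25 called members, 24 were on other chromosomes, as were most of the members not called. Whether the donor differences at these loci had a part in any call was not tested.

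The remaining genes of mitochondrial translation were examined from lists, none of which was tested as a whole. Of all genes tested, 24.2% were called higher and 26.2% lower. None of 5 further ribosome proteins with other names (Dap3, Chchd1, Aurkaip1, Ptcd3 and Gadd45gip1) was called, with changes between -0.04 and 0.05. Of 30 assembly factors 5 were called higher and 6 lower, with a median of -0.01. Ddx28, an RNA helicase of large subunit assembly, went from 22.9 and 25.1 CPM in wild-type to 29.7 and 31.6 CPM in TNFR2 KO (0.35, adjusted p = 6.38e-04 in edgeR), and Tmem223 changed by 0.31. Fastkd2, an RNA-binding protein, went from 15.9 and 14.1 CPM to 11.9 and 10.5 CPM (-0.41, adjusted p = 0.00492), and Mrm3, which methylates the large ribosomal RNA, changed by -0.49. Of 19 translation factors and activators 1 was called higher (Oxa1l, 0.12) and 4 lower, among them the mRNA-stabilising partners Lrpprc (-0.25) and Slirp (-0.25) and the rescue factor Mtres1 (-0.45). Of 22 genes that charge mitochondrial tRNAs 2 were called higher (Wars2, 0.45, and Hars2, 0.20) and 4 lower. Of the lower ones Ears2 (-0.56) and Gatb (-0.35) were the furthest, followed by Kars (-0.19) and Gars (-0.11). Of 23 genes that copy, transcribe or process the mitochondrial genome 2 were called higher (Mterf2, 0.41, and Hsd17b10, 0.26) and 4 lower, Prorp (-0.36) and Tbrg4 (-0.25) being the largest.

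This ribosome translates the 13 protein-coding genes of mitochondrial DNA, which are counted here by gene and not by mRNA. Of these, 7 were called lower (53.8%) and 1 higher (7.69%), with a median log2-fold change of -0.14. Of all genes tested, 26.2% were called lower and 24.2% higher. Their sum was 19412 and 19521 CPM in wild-type and 18904 and 18637 CPM in TNFR2 KO, the TNFR2 KO libraries being lower without overlap. mt-Nd1, which shares no 31-base stretch with another gene, measured 1577 and 1566 CPM in wild-type and 1428 and 1389 CPM in TNFR2 KO (-0.16, adjusted p = 6.70e-05 in edgeR). mt-Nd6, the 1 gene on the other strand, measured 11.8 and 12.2 CPM against 9.25 and 7.65 CPM (-0.50, adjusted p = 0.00323). It had the lowest CPM of the 13, in libraries selected for poly-A RNA. For mt-Co2 (-0.23), mt-Co3 (-0.14), mt-Atp6 (-0.26) and mt-Nd4l (-0.12), which make up 4 of the 7 lower calls, and for mt-Nd3 (0.38), the one called higher, over 98% of the stretches also occur in other genes, so these values are uncertain.

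A pair of related gene groups was set beside the members. The 94 cytosolic ribosomal protein genes tested had 52 higher and 7 lower calls with a median of 0.11, and the 80 nuclear genes of the respiratory chain 27 higher and 8 lower with a median of 0.05. The members lay at 12 higher (15.4%), 13 lower (16.7%) and -0.02, and over all genes tested 24.2% were called higher and 26.2% lower. No test was made of the difference between lists, and under NK lineage scaling the median of all genes was itself at -0.84.

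**Figure D5:**
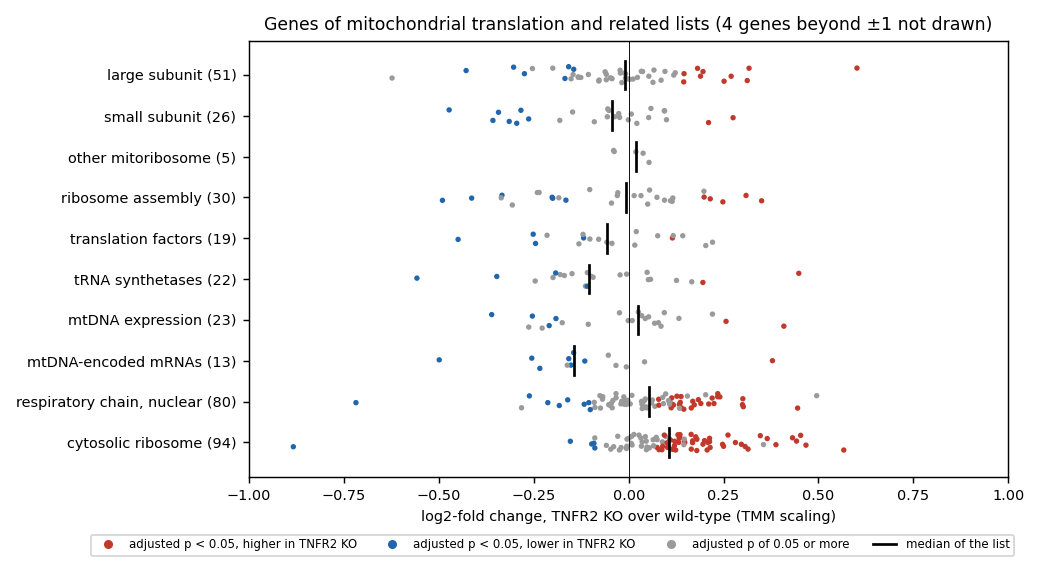
Log2-fold change between TNFR2 KO and wild-type (horizontal axis, TMM scaling) of each gene in 10 lists, with the number of genes tested in parentheses and a black bar at the median. Both subunits have medians near 0 (-0.01 and -0.04) and points on both sides, while the cytosolic ribosome has its median at 0.11. NK lineage scaling moves the median of all genes to -0.84.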

How the data were processed

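Poly-A selected, stranded RNA of the 4 libraries was sequenced in pairs. The authors trimmed reads with Trimmomatic 1.4, assigned them to mm10 transcripts with kallisto 0.46.1 (versions per the submitters' processing notes), summed them per gene symbol with Tximport, and deposited these estimated counts (expected counts) unscaled. Which transcript annotation they used is not stated in those sources. A row without a gene name, 0.056% to 0.073% of counts, was left out. Counts were rounded, and the 4 libraries were fitted with genotype as the only term in edgeR 4.0.16 (R 4.3.3) with filterByExpr, TMM and the quasi-likelihood test, after tests on simulated data. The study's own tool, DESeq2 (1.42.0), was an alternative. Standard errors came from the log2-fold change and its F statistic.

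The members and gene lists were chosen with earlier results of these data known. Named genes were Tnfrsf1b, members called with a change over 0.5, the 6 higher and 6 lower with the largest changes, the 3 most and 3 least abundant, those of the roles described, and up to 4 genes of each other list. Positions, transcript lengths and shared 31-base stretches came from GENCODE M21 (GRCm38), which matched all 78 members, and promoter windows from RefSeq.

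Labels place same-numbered libraries in the same spleen pool, so numbers pair the samples. Their deviations from the group means had a correlation of 0.024 over all genes and 0.135 over the members without Mrpl23. Alternatives were scaling by upper quartiles, by DESeq2 size factors, by library size alone or on NK lineage genes, DESeq2, other filters, the replicate block and each library left out. Plots used matplotlib 3.10.9 under Python 3.11.15.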

Additional observations from a re-analysis of the deposited data

How the results depend on the processing

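The 12 higher and 13 lower calls, relative to the typical gene, depended most on scaling. Library size alone gave 9 and 23, with medians of -0.083 over the members, -0.072 in the large and -0.11 in the small subunit and a log2 ratio of the summed CPM of -0.052. NK lineage scaling gave 0 and 78, with -0.86, -0.85, -0.89 and -0.83, where 88.9% of all genes were called, 125 higher and 12164 lower. A mean of at least 10 CPM gave 8 and 21, with -0.054, -0.046, -0.075 and -0.026. DESeq2 gave 8 and 5, upper-quartile scaling 12 and 12, DESeq2 size factors 12 and 13, and no filter 12 and 15. The replicate block, which uses the pairing by spleen pool, gave 12 and 16 and called Mrpl38 (-0.20) in addition among the genes named. It changed no other call of a named gene. Restriction to the 65 members with under 20% shared stretches, chosen after seeing the data, gave 12 and 10.

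With each library left out, higher calls ran from 9 to 14, lower calls from 6 to 14, the medians from -0.024 to -0.0012 (members), -0.016 to 0.027 (large subunit) and -0.051 to -0.023 (small subunit), and the summed ratio from 0.0088 to 0.026.

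The sign turned with NK lineage scaling in Mrpl1 (-0.24), Mrpl9 (-0.52), Mrpl58 (-0.53), Mrps23 (-0.57), Mrpl34 (-0.57), Mrpl33 (-0.59), Mrps21 (-0.63), Mrpl30 (-0.65), Mrpl4 (-0.65), Mrpl57 (-0.66), Mrpl52 (-0.70), Mrpl40 (-0.70), Mrpl16 (-0.72), Mrpl24 (-0.75), Mrps24 (-0.75), Mrpl48 (-0.76), Mrpl18 (-0.79), Mrps12 (-0.79) and Mrps11 (-0.84). Without a call it also turned under library size alone in Mrpl18 (-0.0077), Mrps12 (-0.0081) and Mrps11 (-0.054), at 10 CPM in Mrps11 (-0.029), and with upper-quartile scaling in Mrpl10 (0.0011) and Mrpl55 (0.00030). With a library left out it ran from -1.48 to 0.43 in Mrpl23, -0.014 to 0.0091 in Mrps30, -0.044 to 0.076 in Mrps11, -0.10 to 0.048 in Mrps10, -0.048 to 0.050 in Mrpl10, -0.080 to 0.054 in Mrpl46, -0.10 to 0.11 in Mrpl55, -0.11 to 0.014 in Mrpl3 and -0.16 to 0.045 in Mrps18c. The cause of these changes was not tested. Mrpl23 rested on the fewest counts of the members, 23.2 to 116 per library. Wild-type replicates 1 and 2 had similar totals (37147731 and 36119171 estimated counts) but 116 and 36.0 counts of Mrpl23. Its sum with Mrpl23-ps1 was 19.4 and 19.1 CPM in these libraries. The part of depth or of the pseudogene in the spread of Mrpl23 was not tested.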
